A study of Mus musculus with 8 samples.

Results

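The genes examined here are the 7 that encode the endothelin system in the mouse: the ligands *Edn1*, *Edn2* and *Edn3*, the receptors *Ednra* and *Ednrb*, and the converting enzymes *Ece1* and *Ece2*. They were taken by symbol from the 54532 Ensembl gene identifiers counted in each culture, and every one of the 7 was found. The cultures were wild-type primary pericytes from mouse brain, 4 given vehicle and 4 given TGF-β1 at 5 μg mL−1, all harvested at 48 h for bulk RNA-seq of total RNA. The series describes 8 primary cultures, whereas the methods describe 4 isolates that received both treatments. The labels number the vehicle cultures 1 to 4 and the TGF-β1 cultures 5 to 8 and pair none of them, so the groups were compared as unpaired. The methods describe the mice of the whole study as male and give their ages, but do not say which mice, or how many, a culture came from, and a culture passaged several times may differ from pericytes on a capillary. The comparison addresses how TGF-β1, a cytokine of the tumor microenvironment, changes what pericytes express. Since the sources differ on the origin of the cultures, p-values measure the spread between these 8 cultures, which may not be the spread between animals.

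Endothelins are short peptides with strong constrictor activity on vessels. Each is cut from a longer precursor, first by furin-like proteases into an inactive intermediate and then by endothelin-converting enzyme into the active peptide. Endothelin receptor A sits mainly on mural cells and couples through Gq to calcium release and contraction. Endothelin receptor B is found on endothelial cells and astrocytes, among others, where it relaxes vessels through the endothelium and clears the ligand. Brain capillary pericytes are known to constrict when endothelin-1 is applied.

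The depth was even, with 45255235 to 47651397 counts per vehicle culture and 45988208 to 46827358 per TGF-β1 culture. Levels are given as CPM, the count scaled to a common library size with TMM factors, and 3 counts correspond to 0.0631 to 0.0657 CPM. Of the 22544 genes that passed the filter on low counts, 41.3% were called at an adjusted p of 0.05 by the quasi-likelihood test of edgeR, 20.9% as higher and 20.3% as lower with TGF-β1. The label of the cultures was compared with marker lists, whose genes are named here after their values were seen. Of 10 pericyte markers, *Pdgfrb* was at 202 ± 5.43 CPM with vehicle (SD, n = 4) and 291 ± 2.57 CPM with TGF-β1 (SD, n = 4) and *Cspg4* at 82.8 and 169 CPM on average. *Mcam* also rose, from 5.24 to 10.05 CPM, whereas *Rgs5* fell from 8.61 to 2.13 CPM and *Anpep* from 40.4 to 30.1 CPM. *Notch3* was at 88.4 and 85.8 CPM and *Des* at 0.684 and 0.622 CPM, neither of them called, and *Kcnj8*, *Abcc9* and *Vtn* did not pass the filter, the highest of their group means being 0.114 CPM. Of 10 endothelial markers, *Cldn5*, *Erg*, *Tie1* and *Emcn* did not pass the filter, with 0.205 CPM as the highest group mean, and *Pecam1* was at 1.11 and 1.10 CPM, whereas *Cdh5* was at 375 and 367 CPM. Of 6 fibroblast markers, *Col1a1* rose from 1586 to 2522 CPM, *Fbln1* fell from 446 to 196 CPM, *Dcn* from 52.0 to 46.6 CPM and *Dpt* from 0.490 to 0.276 CPM. *Pdgfra* was at 62.5 and 62.9 CPM and not called, and *Lum* did not pass the filter (0.0864 and 0.0651 CPM).

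The 3 ligands carry nearly the same active peptide. The stretches that encode it, 63 bases each, were located in the GENCODE M21 transcripts by the spacing of the cysteines and the last tryptophan of the peptide. They are shown because the ligands differed widely in level, so it matters whether their reads can be told apart. Capitals mark the 45 positions at which the 3 ligands carry the same base.

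*Edn1*: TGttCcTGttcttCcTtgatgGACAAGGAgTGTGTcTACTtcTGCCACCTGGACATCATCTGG

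*Edn2*: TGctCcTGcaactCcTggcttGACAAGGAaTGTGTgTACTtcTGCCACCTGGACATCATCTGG

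*Edn3*: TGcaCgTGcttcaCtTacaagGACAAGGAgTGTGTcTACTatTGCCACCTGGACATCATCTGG

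In this stretch *Edn1* matched *Edn2* at 53 of 63 bases (84.1%) and *Edn3* at 50 (79.4%), and *Edn2* matched *Edn3* at 48 (76.2%). The likeness did not extend to exact matches of 50 bases. None of the 50-base words of the transcripts of *Edn1*, *Edn2* or *Edn3* occurred in the transcripts of another gene. The corresponding shares were 0.848% for *Ednra*, 0.376% for *Ednrb* and 0.21% for *Ece1*, but 54.6% for *Ece2*. Only exact matches to annotated transcripts were searched, so reads aligned with mismatches were not assessed.

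TGF-β1 changed 3 of the 7 genes, namely a ligand, a receptor and an enzyme. The ligand gene *Edn1* rose to 3.37 times its vehicle level, the receptor gene *Ednra* rose to 1.33 times, and the converting enzyme gene *Ece1* fell to 0.794 times, and in each of these the TGF-β1 cultures did not overlap the vehicle cultures. Among all genes tested, 37.9% had groups that did not overlap, 19.1% with TGF-β1 above and 18.8% with TGF-β1 below. *Ece2* was tested and not called. *Edn2*, *Edn3* and *Ednrb* had too few counts to pass the filter. So 3 of the 4 members tested were called, where 41.3% of all genes that passed the same filter were called. With only 4 members tested, and the members chosen with earlier results of these data known, this count is a description.

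**Figure D1:**
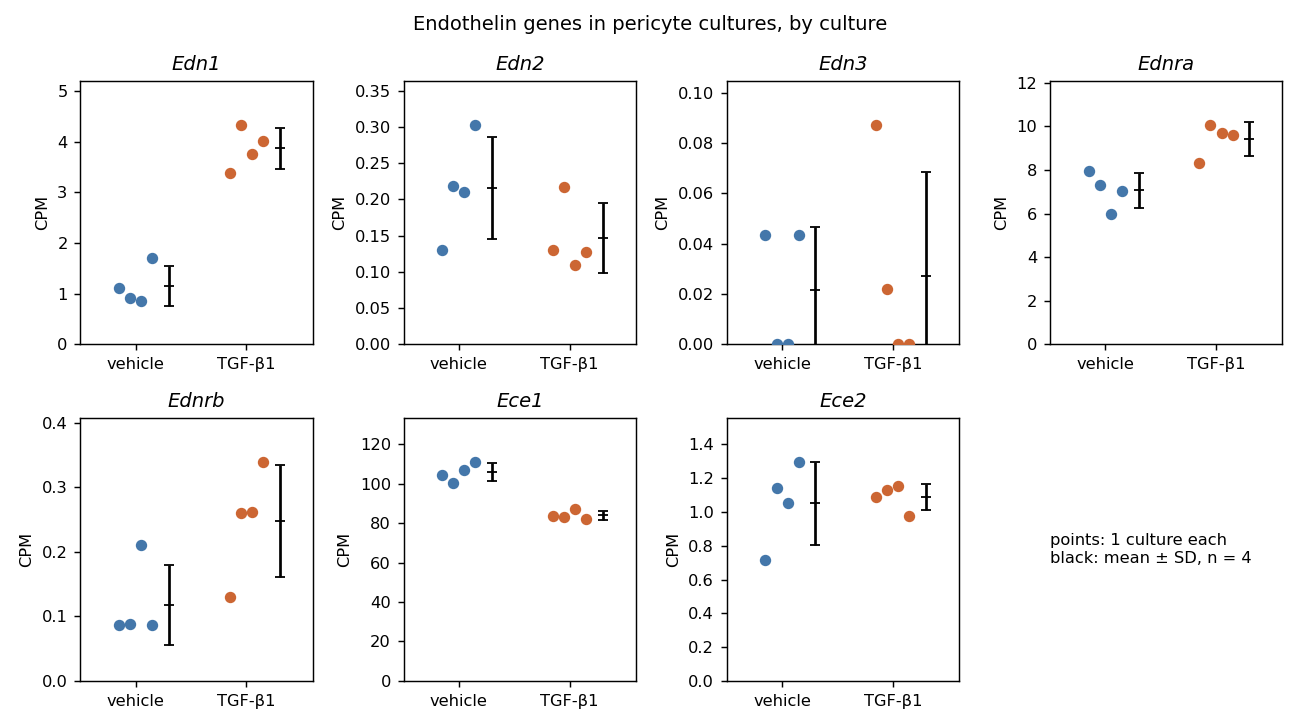
CPM of the 7 endothelin genes in the 4 vehicle and 4 TGF-β1 cultures, with 1 point per culture and the mean ± SD beside it, each panel on its own axis from 0, where the SD bars of *Edn3* are cut off. The groups are apart for *Edn1*, *Ednra* and *Ece1* and overlap for the other genes, and the axes show that *Edn3* and *Ednrb* stay below 0.1 and 0.35 CPM.

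*Edn1* (ENSMUSG00000021367) encodes the precursor of endothelin-1 and lies on chromosome 13 of GRCm38 from 42301476 to 42307990 on the plus strand. With vehicle it had 51, 42, 41 and 79 counts in cultures 1 to 4, or 1.11, 0.920, 0.862 and 1.71 CPM. With TGF-β1 it had 155, 199, 172 and 189 counts in cultures 5 to 8, or 3.38, 4.33, 3.75 and 4.02 CPM. Every treated culture was above every vehicle culture, and vehicle culture 4 was the highest of its group. The means were 1.149 ± 0.388 CPM with vehicle and 3.87 ± 0.404 CPM with TGF-β1 (SD, n = 4 each), and the exact two-sided permutation test gave p = 0.0286, the smallest possible with 35 splits. On the log2 scale the fold change was 1.75 (SE 0.16, 95% interval 1.42 to 2.08, adjusted p = 2.56e-12 in edgeR's quasi-likelihood test). A change at least this large in either direction was seen in 286 of the 22544 genes tested (1.27%). The antisense gene *Gm47118* overlaps 35 exon bases of *Edn1*, had 0 to 10 counts with vehicle and 8 to 12 with TGF-β1, and cannot be told apart from it there without strand. In a bulk library, more cells that express a gene and more RNA per cell cannot be told apart. Endothelial cells are a known source of endothelin-1. Of the 10 endothelial markers listed, *Pecam1* had a log2 fold change of -0.00 (edgeR adjusted p = 0.993), and *Cldn5*, *Erg*, *Tie1* and *Emcn* did not pass the filter. *Cdh5*, at 375 and 367 CPM, and *Kdr*, at 17.9 and 18.6 CPM, were expressed in both groups and not called. The endothelial list summed to 472 to 485 CPM with vehicle and 475 to 500 CPM with TGF-β1, most of it *Cdh5*. Within the list *Vwf* rose by 1.27 and *Flt1* by 0.28 on the log2 scale, *Tek* fell by 0.45, and the part of such cells in the rise of *Edn1* was not tested.

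The promoter of *Edn1* is known as a site where Smad proteins, which carry the TGF-β signal, act together with AP-1 factors, GATA2 and the hypoxia-inducible factor. The RefSeq window of 250 bases before to 50 bases after the annotated start (GRCm38.p6, chr13:42301226-42301525, plus strand) is printed because *Edn1* had the largest log2 fold change of the 4 members tested, and capitals mark the motifs searched.

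*Edn1* promoter: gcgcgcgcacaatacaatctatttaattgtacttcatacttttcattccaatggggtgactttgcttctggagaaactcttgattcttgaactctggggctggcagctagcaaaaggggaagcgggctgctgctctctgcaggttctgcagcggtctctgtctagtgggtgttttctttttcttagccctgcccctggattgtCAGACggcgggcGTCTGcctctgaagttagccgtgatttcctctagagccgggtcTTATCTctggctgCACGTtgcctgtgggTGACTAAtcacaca

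Searched on both strands were CAGAC (the Smad binding element), TGANTCA (AP-1), TGACTAA (a variant of the AP-1 site), AGATAA (the site of factors such as GATA2) and ACGTG (the core of the hypoxia response element). The variant was added after the sequence had been seen. With the annotated start as 0 and the leftmost base of each match counted, the window held CAGAC at position -47 and, on the other strand, at -35. On the other strand it also held AGATAA at 8 and ACGTG at 21, and on the printed strand TGACTAA at 36. None of these matches overlapped. TGANTCA was not in this window. Such short words are common. Of 32851 RefSeq promoter windows of this length, 49.6% held CAGAC, 7.81% TGANTCA, 2.35% TGACTAA, 11.2% AGATAA and 19.6% ACGTG.

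The remaining ligand genes were close to the limit of detection. *Edn2* (ENSMUSG00000028635, chromosome 4, 120161206 to 120167360), whose peptide binds the same receptors, had 6, 10, 10 and 14 counts with vehicle and 6, 10, 5 and 6 with TGF-β1. The groups overlapped, at 0.216 ± 0.0707 and 0.146 ± 0.0485 CPM (SD, n = 4 each; exact two-sided permutation test, p = 0.171). *Edn3* (ENSMUSG00000027524, chromosome 2, 174760619 to 174784042), which is needed for the development of neural crest cells, had 2, 0, 0 and 2 counts with vehicle and 4, 1, 0 and 0 with TGF-β1. A count of 0 allows up to 0.0657 CPM (3 counts, counting error only) at this depth if counts are independent, and more if both mates of a pair were counted. No difference in *Edn3* was detectable.

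*Ednra* (ENSMUSG00000031616, chromosome 8, 77663031 to 77724464, minus strand) encodes endothelin receptor A and was the main receptor gene in these cultures. With vehicle it was at 7.93, 7.30, 5.99 and 7.03 CPM in cultures 1 to 4, from 366, 333, 285 and 325 counts. With TGF-β1 it was at 8.31, 10.1, 9.70 and 9.61 CPM in cultures 5 to 8, from 381, 463, 445 and 452 counts. The groups did not overlap, although TGF-β1 culture 5 was close to vehicle culture 1. The means of 7.06 ± 0.808 and 9.42 ± 0.771 CPM (SD, n = 4 each) gave p = 0.0286 in the exact two-sided permutation test. The log2 fold change was 0.42 (SE 0.08, 95% interval 0.25 to 0.58, adjusted p = 5.09e-05 in the same edgeR test). At 89.9% of the ranking of all log2 fold changes from lowest to highest, *Ednra* stood below *Edn1*, which was at 99.3%. The antisense gene *4933431K23Rik* overlaps 91 exon bases of *Ednra* and had 6 to 25 counts.

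As *Edn1* and *Ednra* were the members that rose, the window of *Ednra* (GRCm38.p6, chr8:77724403-77724702, minus strand) is given with the same motifs in capitals.

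*Ednra* promoter: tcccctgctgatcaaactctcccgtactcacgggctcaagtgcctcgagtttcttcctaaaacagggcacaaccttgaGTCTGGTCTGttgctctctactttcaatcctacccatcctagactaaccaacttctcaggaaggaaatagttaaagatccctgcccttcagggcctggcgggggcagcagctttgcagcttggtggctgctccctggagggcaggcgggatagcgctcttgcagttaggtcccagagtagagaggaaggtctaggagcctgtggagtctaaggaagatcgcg

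It held CAGAC on the other strand at the adjoining positions -172 and -167, and none of the 4 remaining motifs. CAGAC was not limited to the members that rose. It was also found in 3 of the 4 windows of *Ece1*, which fell, in the window of *Ece2*, which was not called, and in that of *Ednrb*, and ACGTG was found in a window of *Ece1* and in that of *Ece2*. The windows of *Edn2* and *Edn3* held none of the motifs.

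*Ednrb* (ENSMUSG00000022122, chromosome 14, 103814625 to 103844402, minus strand), the receptor that is typical of endothelium and astrocytes, had 4, 4, 10 and 4 counts with vehicle and 6, 12, 12 and 16 with TGF-β1. Vehicle culture 3 stood above the other vehicle cultures and TGF-β1 culture 5 below the other treated ones, so the groups overlapped. The levels were 0.118 ± 0.0616 and 0.248 ± 0.0868 CPM (SD, n = 4 each; exact two-sided permutation test, p = 0.0571). With every gene of at least 1 count in any culture admitted to edgeR, the log2 fold change was 1.05 with a 95% interval of -0.01 to 2.11 (adjusted p = 0.190), and DESeq2 gave 1.08 (adjusted p = 0.149). The call depended on single cultures, because without vehicle culture 3 the gene passed the filter at a log2 fold change of 1.49 (edgeR adjusted p = 0.0297) and without TGF-β1 culture 5 at 1.26 (edgeR adjusted p = 0.0418). It also passed the filter without vehicle culture 1, 2 or 4, at edgeR adjusted p = 0.168, 0.166 and 0.167. Of the astrocyte markers, *Aqp4* was at 0 in every vehicle culture and at 0.0596 CPM on average with TGF-β1, and *Gfap* was at 0.878 and 0.946 CPM. The astrocyte list of 8 genes summed to 58.7 to 65.5 CPM with vehicle and 43.3 to 48.5 CPM with TGF-β1. The largest fall in CPM within it was that of *Slc1a2*, from 38.5 to 16.3 CPM. Within the list *Slc1a3* rose from 9.73 to 15.2 CPM and *Aldh1l1* from 5.15 to 8.78 CPM, while *S100b* fell from 4.79 to 1.64 CPM and *Gjb6* from 0.718 to 0.0433 CPM, and the part of such cells in the values of *Ednrb* was not tested.

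*Ece1* (ENSMUSG00000057530, chromosome 4, 137862237 to 137965229, plus strand) encodes the enzyme that makes the active peptides and was by far the most abundant of the 7. With vehicle it was at 104.6, 100.4, 107.0 and 111.3 CPM in cultures 1 to 4. With TGF-β1 it was at 83.6, 83.3, 87.2 and 82.0 CPM in cultures 5 to 8. Every treated culture was below every vehicle culture by a margin larger than the range of either group. The means were 105.8 ± 4.55 and 84.0 ± 2.25 CPM (SD, n = 4 each; exact two-sided permutation test, p = 0.0286), and *Ece1* fell by 0.33 on the log2 scale (SE 0.03, adjusted p = 9.56e-13 in edgeR's quasi-likelihood test). The fall was small but, with 3828 to 5142 counts per culture, measured to a 95% interval of -0.39 to -0.27. RefSeq lists 4 start windows for *Ece1*, which has isoforms with different N termini, and counts per gene do not separate them.

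*Ece2* (ENSMUSG00000022842, chromosome 16, 20629828 to 20646485, plus strand), a related enzyme that works at a more acidic pH, was at 0.715, 1.14, 1.05 and 1.30 CPM with vehicle and 1.09, 1.13, 1.16 and 0.978 CPM with TGF-β1. The treated cultures lay within the range of the vehicle cultures. The log2 fold change of 0.05 had a 95% interval of -0.37 to 0.47 (adjusted p = 0.878 in the same edgeR test), which spans 0.776 to 1.38 times the vehicle level. Exons of *Gm49333*, a gene on the same strand, cover 57.5% of the exon length of *Ece2*. *Gm49333* had 0 counts in every culture, and how reads in the shared exons were assigned is not given in the sources used here, so the level of *Ece2* is uncertain.

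**Figure D2:**
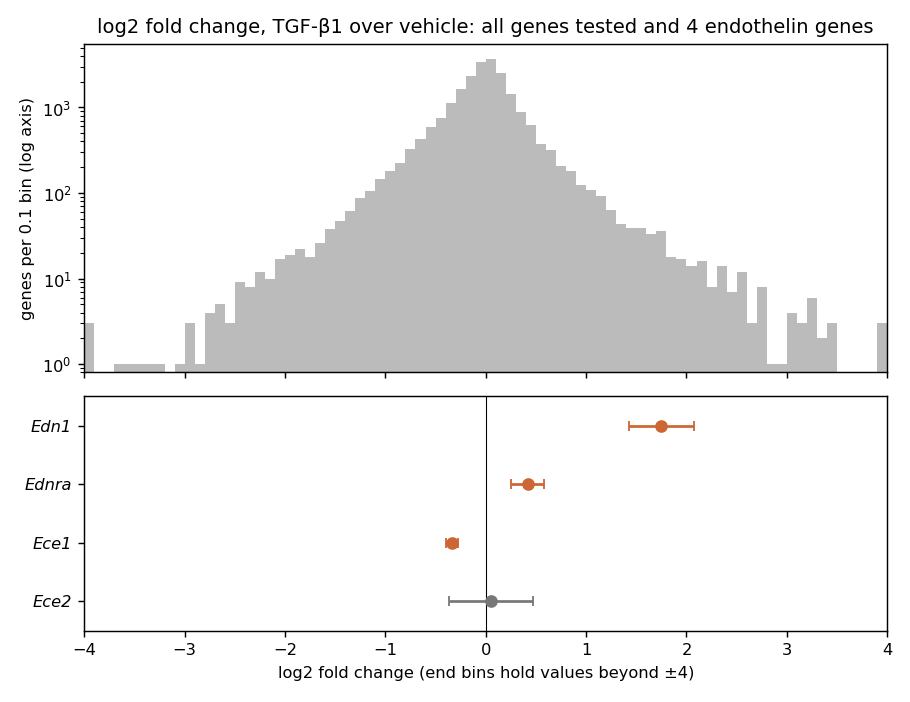
Top, number of genes per 0.1 bin of log2 fold change (TGF-β1 over vehicle) for the 22544 genes tested, on a log axis. Bottom, log2 fold change with its 95% interval for the 4 endothelin genes tested, called genes in orange: *Edn1* at 1.75 lies in the thin right tail, *Ednra* at 0.42 and *Ece1* at -0.33 within the bulk, and the interval of *Ece2* spans 0.

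Levels of different genes were compared per kilobase of exon. With vehicle the order of the group means was *Ece1* (19.97 CPM per kb), *Ednra* (1.29), *Edn1* (0.537), *Ece2* (0.206), *Edn2* (0.147), *Ednrb* (0.0276) and *Edn3* (0.00527). In that order the cultures of *Ece2* and *Edn2* overlapped and those of the other neighbours did not. The place of *Ece2* and its overlaps rest on its full exon length, 57.5% of which *Gm49333* also covers, and depend on the length used. With TGF-β1 *Edn1* (1.81 CPM per kb) came level with *Ednra* (1.72), and their cultures overlapped, at 1.58 to 2.02 and 1.52 to 1.84 CPM per kb. *Edn2* (0.0746 to 0.149) and *Ednrb* (0.0307 to 0.0797) also overlapped with TGF-β1. The level of *Ednra* was 1.61 to 3.10 times that of *Edn1* in the vehicle cultures and 0.909 to 1.01 times in the TGF-β1 cultures. *Edn1* made up 77.9% of the 3 ligands per length with vehicle and 94.4% with TGF-β1, and *Edn2* 21.4% and 5.22%. The ratio of *Ednra* to *Ednrb* was 22.2 to 71.3 in the vehicle cultures and 22.0 to 49.5 in the TGF-β1 cultures, and it rests on the few counts of *Ednrb*. The ratio of *Ece1* to *Ece2*, 97.1 and 74.4 from the group means, depends on the length used for *Ece2*, with 41.3 and 31.6 when exon sequence that other genes cover is left out.

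**Figure D3:**
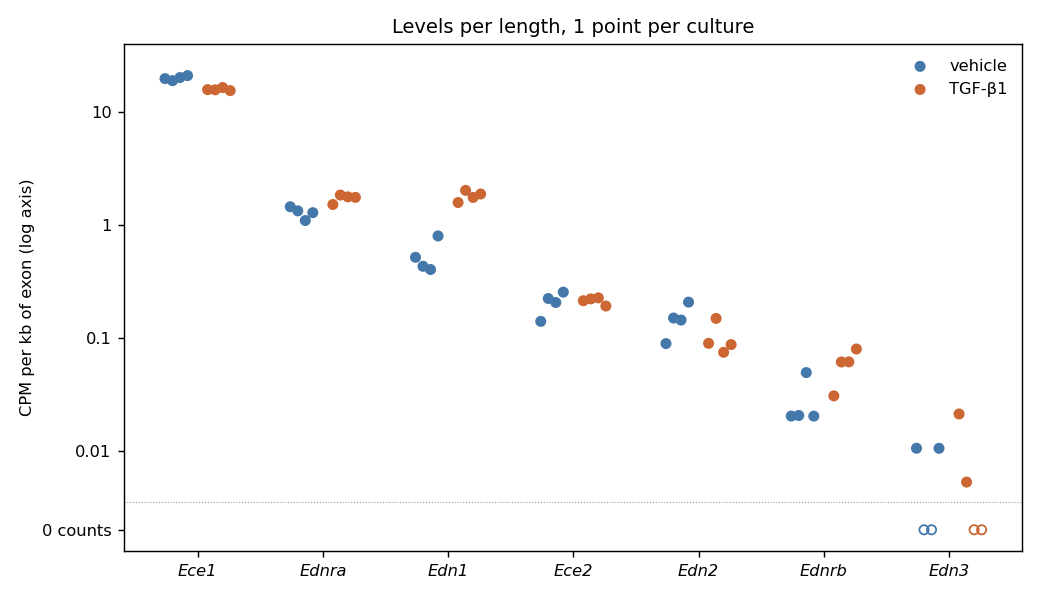
CPM per kb of exon for the 7 endothelin genes on a log axis, 1 point per culture, ordered by the vehicle mean, with open points below the dotted line for cultures with 0 counts. *Ece1* is at 15.5 to 21.0 in all cultures. With *Ece2* placed by its full exon length, *Edn1* moves from between *Ednra* and *Ece2* with vehicle to the level of *Ednra* with TGF-β1.

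Around the ligands stand the proteases that cut their precursors and those that break the peptides down. Of 13 such genes, 10 were tested, of which edgeR called 5 higher and 3 lower, at a median log2 fold change of 0.36 against -0.01 over all genes tested. Of all genes tested, edgeR called 20.9% higher and 20.3% lower. *Mme*, which encodes neprilysin, a protease that degrades endothelins, fell from 61.3 ± 2.88 to 37.8 ± 2.73 CPM (SD, n = 4 each), a log2 fold change of -0.70. *Ctsa*, a carboxypeptidase of the lysosome that also inactivates endothelin-1, fell by 0.11 and the proprotein convertase gene *Pcsk7* by 0.13 on the log2 scale. In the other direction, the convertase gene *Pcsk5* rose by 0.92, the matrix metalloproteinase gene *Mmp2* by 0.65 and *Phex* by 0.56, though *Phex* was not called without TGF-β1 culture 8 (edgeR adjusted p = 0.0604). *Furin*, the convertase best known for the first cut and named here after its value was seen, rose from 256 to 328 CPM (log2 fold change 0.35, edgeR adjusted p = 3.23e-17).

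Signals of the receptors are ended by kinases and arrestins and shortened by RGS proteins, which speed the turn-off of the G protein. Of 13 genes in this group, all tested, 4 were higher and 7 were lower in edgeR's test, with a median log2 fold change of -0.29. Among all genes tested, 20.9% were higher and 20.3% lower. *Rgs5* fell from 8.61 ± 0.466 to 2.13 ± 0.245 CPM and *Rgs2* from 5.73 ± 0.391 to 1.64 ± 0.269 CPM (SD, n = 4 each), log2 fold changes of -2.02 and -1.80. *Grk3*, a receptor kinase, fell by 1.03 on the log2 scale. *Rgs16* rose by 1.18, and *Grk5* and *Jade1* by 0.19 and 0.18. *Jade1*, counted among the 13 genes and the 4 higher, is known mainly as a chromatin-associated protein, not as a kinase, arrestin or RGS protein. *Rgs5* is also on the list of pericyte markers.

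**Figure D4:**
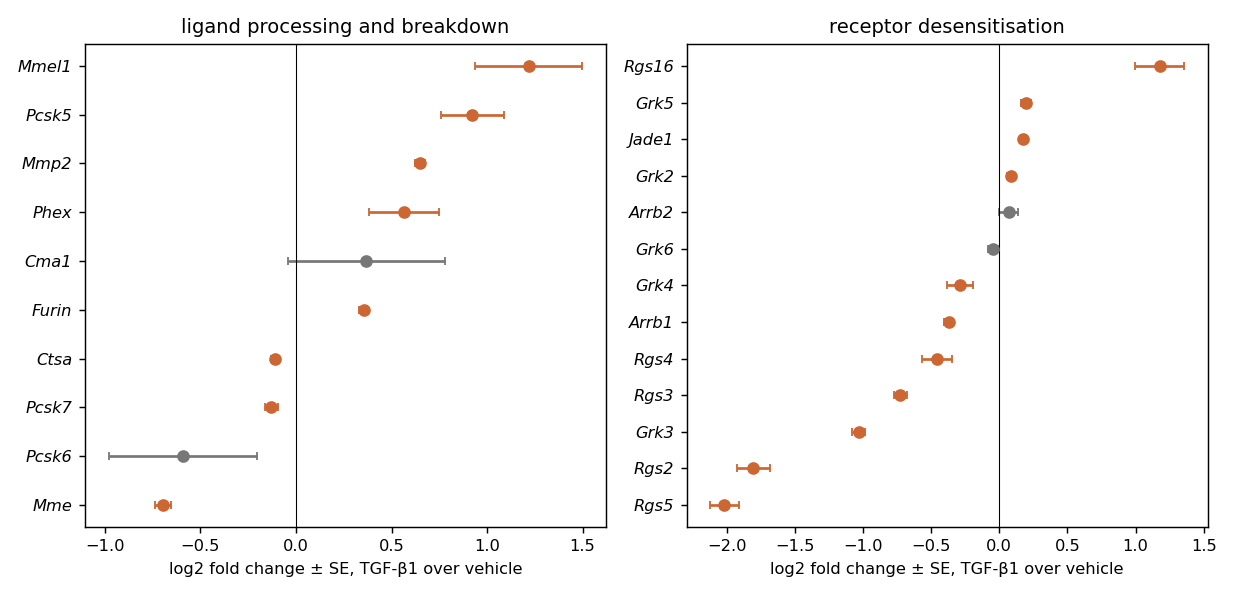
log2 fold change (TGF-β1 over vehicle) ± SE from edgeR for the 10 genes tested of the ligand processing list and the 13 of the desensitisation list, *Jade1* included. Called genes are in orange and others in gray. *Mme* at -0.70 is the lowest of the left panel, and *Rgs5* at -2.02, *Rgs2* at -1.80 and *Grk3* at -1.03 are the lowest of the right panel.

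Downstream of the receptors, genes were called in both directions. Among 27 genes for G proteins and second messengers, 9 were higher and 7 were lower in edgeR's test, with a median log2 fold change of 0.05. For this list and the others downstream, the shares over all genes tested were 20.9% higher and 20.3% lower. The protein kinase C gene *Prkcb* rose by 0.60, the calcineurin-regulated factor *Nfatc4* by 0.51 and *Gnai1* by 0.40 on the log2 scale, while *Prkca* fell by 0.54 and the phospholipase genes *Plcb4* and *Plcb1* by 0.45 and 0.24. Of the Gq α-subunits, *Gnaq* was at 109 and 112 CPM (adjusted p = 0.301) and *Gna11* at 168 and 174 CPM (adjusted p = 0.0732 in the same edgeR test), both named after their values were seen. In the arm that sets myosin phosphorylation, 3 of 15 genes were higher and 6 were lower. *Ppp1r12b*, a subunit of myosin phosphatase, fell by 0.70, the myosin kinase gene *Mylk* by 0.50 and the light chain gene *Myl9* by 0.45. The rises of *Calm2*, *Rhoa* and *Rock1* were 0.15, 0.10 and 0.09, the last not called without TGF-β1 culture 6 (edgeR adjusted p = 0.0942). Among 15 genes for calcium channels and stores, 13 were tested, 4 higher and 4 lower. The ryanodine receptor gene *Ryr3* fell from 10.5 ± 0.479 to 2.54 ± 0.463 CPM (SD, n = 4 each), a log2 fold change of -2.05. The T-type channel genes diverged, as *Cacna1h* fell by 1.27 and *Cacna1g* rose by 0.94. *Stim1*, the sensor of the calcium store, fell by 0.44, and *Ano1*, a chloride channel opened by calcium, and *Cacnb3* rose by 0.41 and 0.25.

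Transcription factors that have been described at the *Edn1* promoter were split as well, with 8 of 21 higher and 7 lower in edgeR's test. Over all genes tested the shares were 20.9% higher and 20.3% lower. *Hif1a* rose by 0.67, and the AP-1 genes *Fos* and *Fosl1* by 0.66 and 0.50. *Ppara*, *Pparg* and *Foxo1* fell by 1.01, 0.58 and 0.39. *Smad3* itself was at 99.7 and 91.2 CPM, a log2 fold change of -0.13 (edgeR adjusted p = 0.000145), and was named after its value was seen.

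Genes that endothelin-1 is known to raise formed the list with the most even direction. Of 18 genes tested, 17 were higher and none was lower in edgeR's test, against 20.9% higher and 20.3% lower among all genes tested. The list was chosen with earlier results of these data known, so its count is a description. Its median log2 fold change was 0.76, and *Atf3*, named after its value was seen, was not called (log2 fold change -0.19, edgeR adjusted p = 0.106). Among them *Hbegf*, a growth factor, rose by 1.77 and *Timp1*, an inhibitor of metalloproteinases, by 1.13 on the log2 scale. These genes also respond to other signals, TGF-β among them. Of the 18, 4 also stand on the list of TGF-β response genes, of which 9 of 10 were higher and *Tgfbi* was lower (median log2 fold change 1.01). Whether endothelin signalling had a part in these changes was not tested, since no culture received an endothelin or a receptor blocker.

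**Figure D5:**
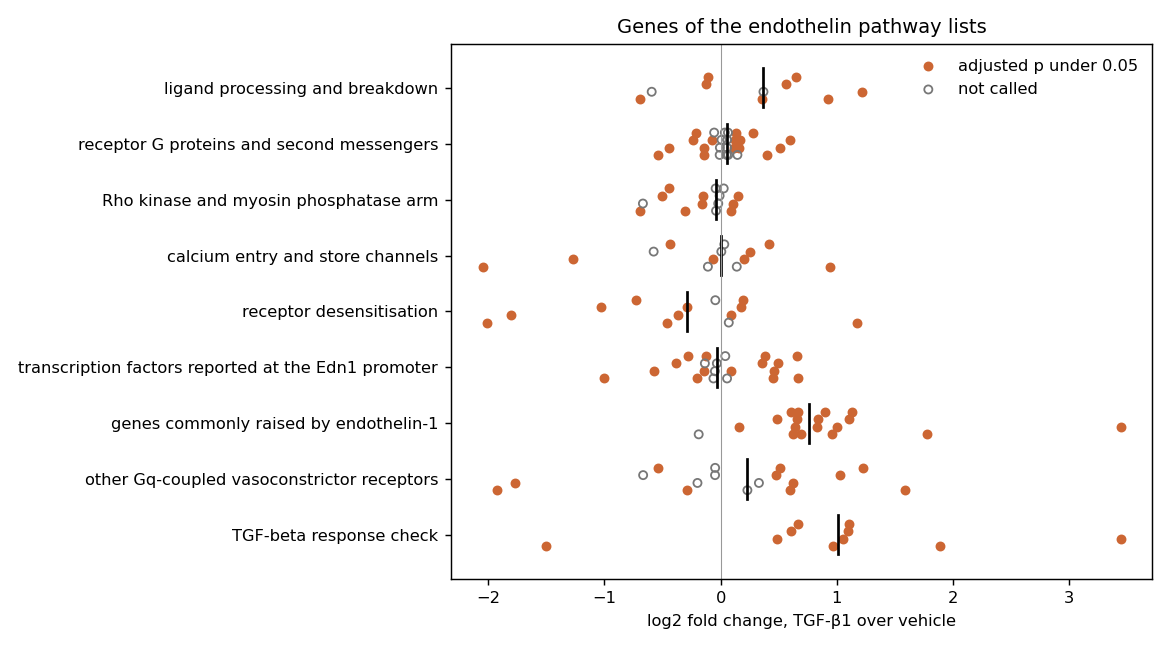
log2 fold change (TGF-β1 over vehicle) of the genes tested in 9 lists around the endothelin system, 1 point per gene, filled where the edgeR adjusted p was under 0.05, with the list median as a black line. The genes commonly raised by endothelin-1 and the TGF-β response genes lie mostly to the right, at medians of 0.76 and 1.01, desensitisation genes mostly to the left at -0.29, and the medians of the 3 downstream lists lie between -0.04 and 0.05. The list labelled as other Gq-coupled vasoconstrictor receptors also holds receptors that do not act mainly through Gq.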

How the data were processed

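Bulk RNA-seq counts from 8 cultures were used, 1 library each. The authors aligned reads to mm10 with STAR 2.7.5c in two-pass mode, removed duplicates with samtools 1.15 and deposited raw counts per gene from featureCounts 2.0.3. The strand setting and annotation release are not given in the sources used here. Identifiers were matched to GENCODE M21 (54495 of 54532). Low counts were mostly even (68.5% to 70.2% of counts from 1 to 20); whether both mates of a pair were counted is not given in the sources used here.

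TGF-β1 was compared with vehicle in edgeR 4.0.16 (R 4.3.3) with filterByExpr, TMM, robust quasi-likelihood tests and Benjamini-Hochberg adjustment over 22544 genes at 0.05. The SE is the log2 fold change over the square root of F. Single members were compared with exact permutation tests over 35 splits. The code was tested on simulated data. Alternatives were DESeq2 1.42.0, other scalings and filters, counts divided by 2, and each culture left out. Between pairs of cultures within a group, the chi-square of the counts per degree of freedom was at least 2.25. This exceeds sampling noise if each count is an independent read, and by a smaller margin if both mates of a pair were counted.

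The members and lists were chosen with earlier results of these data known. The genes named are the 7 members and, per list, up to 3 rises and 3 falls with an adjusted p under 0.05 and at least 1 CPM on average. Some genes that this rule or the likeness to a member selects are not reported here. Motifs were counted in RefSeq windows of GRCm38.p6.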

Additional observations from a re-analysis of the deposited data

Results flagged for a closer look

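A culture stood far from the other 3 of its group (Dixon's test) in 2 of 28 groups of 4 values, where chance flags about 1 in 20. *Ednrb* was at 0.210 CPM in vehicle culture 3 against 0.0877 CPM in the nearest vehicle culture. The ratio of *Ednra* to *Ednrb* per length was 22.2 in the same culture against 63.3 in the nearest, and it rests on the same 10 counts of *Ednrb*.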

How the results depend on the processing

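*Edn1*, *Ednra* and *Ece1* kept their direction and their call under each of 15 alternatives. The log2 fold change ranged from 1.64 to 2.00 for *Edn1*, from 0.35 to 0.48 for *Ednra* and from -0.36 to -0.31 for *Ece1*. The ranges were set by leaving out cultures, and the highest value of *Edn1* was without vehicle culture 4. *Ece2* was never called and ranged from -0.0898, without vehicle culture 1, to 0.17 with each culture left out. The members called higher numbered 2, or 3 without vehicle culture 3 or TGF-β1 culture 5, when *Ednrb* was added, and 1 was called lower throughout. With exon sequence covered by other genes left out, the ratio of *Ece1* to *Ece2* moved to 41.3 with vehicle and 31.6 with TGF-β1, by construction. Alternatives for *Edn2*, *Edn3* and *Ednrb* on CPM were chosen after seeing the data. With each culture left out the difference in *Edn3* ranged from -0.0144 to 0.0147 CPM and turned negative without vehicle culture 2 or 3 or TGF-β1 culture 5. Those of *Edn2* and *Ednrb* kept their sign. Over the 9 lists, 59 to 63 genes were higher and 36 to 42 lower, against 61 and 39 of 139 tested in the main fit. There 71.9% of the list genes were called, against 41.3% of all genes tested. The lists include the TGF-β response genes and were chosen with earlier results of these data known, so this share is a description. No paired analysis was possible because the groups share no replicate number. Depth limits *Edn2*, *Edn3* and *Ednrb* most, at 16 counts or fewer per culture.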

Other observations

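Receptors for other signals that act on vessels were listed beside *Ednra*. Not all of them are constrictor receptors or couple mainly to Gq. Of 23 such genes 17 were tested, of which edgeR called 7 higher and 4 lower (median log2 fold change 0.23). The shares over all genes tested were 20.9% higher and 20.3% lower. The nucleotide receptor gene *P2ry2* rose by 1.58, the bradykinin receptor gene *Bdkrb2* by 1.23 and the prostaglandin F receptor gene *Ptgfr* by 1.03 on the log2 scale. The α1-adrenergic receptor gene *Adra1b* fell from 54.1 ± 2.76 to 15.9 ± 2.18 CPM (SD, n = 4 each), a log2 fold change of -1.77, the prostaglandin E receptor gene *Ptger3* fell by 1.93 and the lysophosphatidic acid receptor gene *Lpar1* by 0.54. The angiotensin receptor genes *Agtr1a* and *Agtr1b*, named after their values were seen, did not pass the filter, with 0.0654 CPM as the highest group mean.

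Across the 8 cultures, the genes whose log2 CPM followed *Edn1* most closely were *Slc48a1* (Pearson's r = 0.993), *Traf3* (0.989) and *Spast* (0.988). For *Ednra* they were *9130019O22Rik* (0.979), *Gm15485* (0.977) and *Htr2b* (0.971), and for *Ece1* they included *Trpv2* (0.996) and *Ppt1* (0.994). These were among the highest of 16490 genes, and the points share the split into 2 groups of 4, so the values are a description.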
